A study of Mus musculus with 11 samples.

Results

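The transcription factors examined here were the 8 E2F genes of the mouse, *E2f1* to *E2f8*, together with *Foxm1* and *Mybl2*, which drive the expression of cell cycle genes. They were chosen by name and are 10 of the 53801 genes counted. Expression was measured by RNA-seq in neural progenitor cells (NPCs) from brains of E13.5 embryos of a mixed C57BL/6 and 129SV background, grown as neurospheres in EGF and bFGF. Ctr cells were Smg6 Flox/Flox; RosaCreER tg/+ without 4-hydroxytamoxifen (4-OHT), from 3 embryos. Ctr + 4-OHT cells were Smg6 Flox/Flox; RosaCreER +/+ and had 1 µM 4-OHT for 3 days, from 4 embryos. *Smg6*-iKO cells were Smg6 Flox/Flox; RosaCreER tg/+ and had the same 4-OHT treatment, from 4 embryos. RNA was taken on day 6, counted from the first addition of 4-OHT. All 3 groups thus carried both floxed *Smg6* alleles, and the CreER gene sits at the ubiquitous Rosa26 locus, so that deletion was not restricted to a cell type. Each library is named by its group and by the embryo as labelled. Embryos SMH_128, SMH_132 and SMH_133 gave cells for a Ctr as well as a *Smg6*-iKO library, and *Smg6*-iKO against Ctr was therefore also tested with the embryo as a block.

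SMG6 is the endonuclease of nonsense-mediated mRNA decay (NMD). E2F proteins bind DNA mostly as dimers with a DP protein. E2F1 to E2F3 activate genes for DNA replication once cyclin-dependent kinases release them from the retinoblastoma protein, E2F4 and E2F5 act mainly with the pocket proteins p107 and p130 as repressors, E2F6 represses without a pocket protein, and the atypical E2F7 and E2F8 repress E2F targets late in S phase without a DP partner. MYBL2 (B-MYB) joins the MuvB complex in S phase, and FOXM1 joins it in G2 to switch on the genes of mitosis. Dividing NPCs express these factors, and neurons that have left the cell cycle lose most of them.

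All 10 genes passed the filter on low counts in every comparison, with 307 to 2602 reads per gene and library. Libraries held 26418249 to 33756875 reads on genes. Levels in CPM are reads scaled to a common library size, and levels in TPM are reads per length of transcript scaled to a common sum. The markers of neural progenitors, *Nes* and *Sox2* among them, summed to 5781 to 6645 TPM in Ctr, 5665 to 6611 TPM in Ctr + 4-OHT and 5109 to 5939 TPM in *Smg6*-iKO. None of these 10 markers was at 0 in every library or had a median under 1 TPM. The 9 neuronal markers, none of them at 0 in every library either, summed to 962 to 1162 TPM in Ctr, 903 to 1849 TPM in Ctr + 4-OHT and 1316 to 1669 TPM in *Smg6*-iKO. The 5 markers of meningeal fibroblasts also varied, between 121 and 177 TPM in Ctr, between 105 and 331 TPM in Ctr + 4-OHT and between 94.6 and 544 TPM in *Smg6*-iKO. The 7 markers of the oligodendrocyte lineage summed to 640 to 726 TPM in Ctr, 766 to 1026 TPM in Ctr + 4-OHT and 694 to 839 TPM in *Smg6*-iKO, so that the control groups did not overlap. *Smg6* itself, counted over the whole gene and therefore no measure of the floxed exon, ranged from 62.3 to 71.9 CPM in *Smg6*-iKO, from 66.5 to 72.3 CPM in Ctr + 4-OHT and from 69.4 to 79.4 CPM in Ctr, and did not pass the edgeR test in either comparison of *Smg6*-iKO (adjusted p = 0.703 and 0.148).

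Promoter sequences were read for 7 of the 10 regulators from RefSeq (build GRCm38.p6), as the 250 bases before an annotated start. *Foxm1*, *E2f4* and *E2f5* had no entry. The 4 windows printed here belong to *E2f8*, which fell in *Smg6*-iKO against Ctr, *E2f7*, which fell only once the embryo was a block, and *Mybl2* and *E2f3*, which did not pass the test in either fit. Capitals mark matches on either strand to the E2F site (TTTCCCGC, TTTCGCGC, TTTGCCGC or TTTGGCGC), the shorter E2F core (GGCGGGA, which can overlap the E2F site), the cell cycle homology region or CHR bound by MuvB (TTTGAA or TTCGAA), and the CCAAT box bound by NF-Y (CCAAT). The windows are chr7:48881597-48881846 on the minus strand for *E2f8*, chr10:110745189-110745438 on the plus strand for *E2f7*, chr2:163054385-163054634 on the plus strand for *Mybl2* and chr13:29986064-29986313 on the minus strand for the first of the starts of *E2f3*.
E2f8: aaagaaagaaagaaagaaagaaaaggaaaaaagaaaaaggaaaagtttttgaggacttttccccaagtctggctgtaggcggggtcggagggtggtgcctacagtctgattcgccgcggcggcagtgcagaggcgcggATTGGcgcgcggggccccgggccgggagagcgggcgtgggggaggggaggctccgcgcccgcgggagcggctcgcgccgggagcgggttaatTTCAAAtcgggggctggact
E2f7: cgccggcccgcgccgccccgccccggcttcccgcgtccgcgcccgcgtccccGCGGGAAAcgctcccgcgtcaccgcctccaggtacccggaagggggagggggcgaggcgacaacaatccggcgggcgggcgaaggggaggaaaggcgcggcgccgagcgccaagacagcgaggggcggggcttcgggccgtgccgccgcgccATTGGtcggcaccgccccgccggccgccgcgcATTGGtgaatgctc
Mybl2: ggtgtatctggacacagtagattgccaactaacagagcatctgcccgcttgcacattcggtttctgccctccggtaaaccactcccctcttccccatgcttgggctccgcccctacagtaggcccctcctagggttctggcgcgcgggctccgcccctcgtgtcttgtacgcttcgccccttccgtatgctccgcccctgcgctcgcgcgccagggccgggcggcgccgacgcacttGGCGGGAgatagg
E2f3: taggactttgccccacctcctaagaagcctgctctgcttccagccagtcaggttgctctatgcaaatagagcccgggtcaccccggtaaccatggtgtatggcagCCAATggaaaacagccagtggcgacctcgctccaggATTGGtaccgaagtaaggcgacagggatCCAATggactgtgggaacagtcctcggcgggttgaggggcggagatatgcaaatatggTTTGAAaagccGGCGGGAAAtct

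The *E2f8* window held a CHR match 20 bases and a CCAAT box 112 bases before the start, and no E2F site. That of *E2f7* held an E2F site 198 bases before the start and CCAAT boxes at 46 and 14 bases, with no CHR match. The *Mybl2* window held only the E2F core, 13 bases before the start. The *E2f3* window held an E2F site at 11 bases overlapping the E2F core at 12 bases, a CHR match at 23 bases and CCAAT boxes at 145, 109 and 81 bases. Of all 32851 promoters of this length, 1.86% held the E2F site, 9.75% the E2F core, 17.1% a CHR match and 33.8% a CCAAT box. Of the 7 regulators read, 2 held the E2F site, 2 the E2F core, 3 a CHR match and 4 a CCAAT box. The windows of *E2f1* and *E2f6*, not printed here, held none of these. Such hits are matches of letters and not measured binding. They occurred both among regulators that fell and among regulators that did not.

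Per length of transcript, *E2f5* was the most abundant regulator, with a median of 82.4 TPM over the 11 libraries (63.2 to 96.0), and its range lay above that of every other member. *Foxm1* followed with a median of 37.1 TPM (28.6 to 45.2), then *E2f4* with 30.8 TPM (27.0 to 36.8) and *E2f6* with 30.1 TPM (27.1 to 37.7). The ranges of these 3 genes overlapped, and *E2f4* was above *E2f6* in 6 of 11 libraries. The activators *E2f3* and *E2f1* had medians of 22.0 TPM (20.4 to 25.96) and 18.1 TPM (16.2 to 21.1), and *E2f3* was the higher of both in all 11 libraries although their ranges overlapped. *E2f8*, *E2f2* and *Mybl2* had medians of 11.9, 11.4 and 9.70 TPM with overlapping ranges. *E2f7* was lowest, at a median of 5.32 TPM (3.94 to 5.88), below *Mybl2* in all 11 libraries. Of the summed TPM of the 8 E2F genes, *E2f4* and *E2f5* made up 53.7% ± 1.90 (SD) in the 3 Ctr libraries, 52.9% ± 0.899 in the 4 of Ctr + 4-OHT and 51.8% ± 1.31 in the 4 of *Smg6*-iKO. The shares of *E2f7* and *E2f8* were 8.45% ± 0.475, 8.52% ± 0.702 and 7.82% ± 0.621 in the same order, those of *E2f1* to *E2f3* were 23.7% ± 1.08, 24.4% ± 2.07 and 25.9% ± 0.889, and those of *E2f6* were 14.2% ± 0.390, 14.2% ± 1.16 and 14.4% ± 0.335. Differences in share between the groups were not tested.

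**Figure D1:**
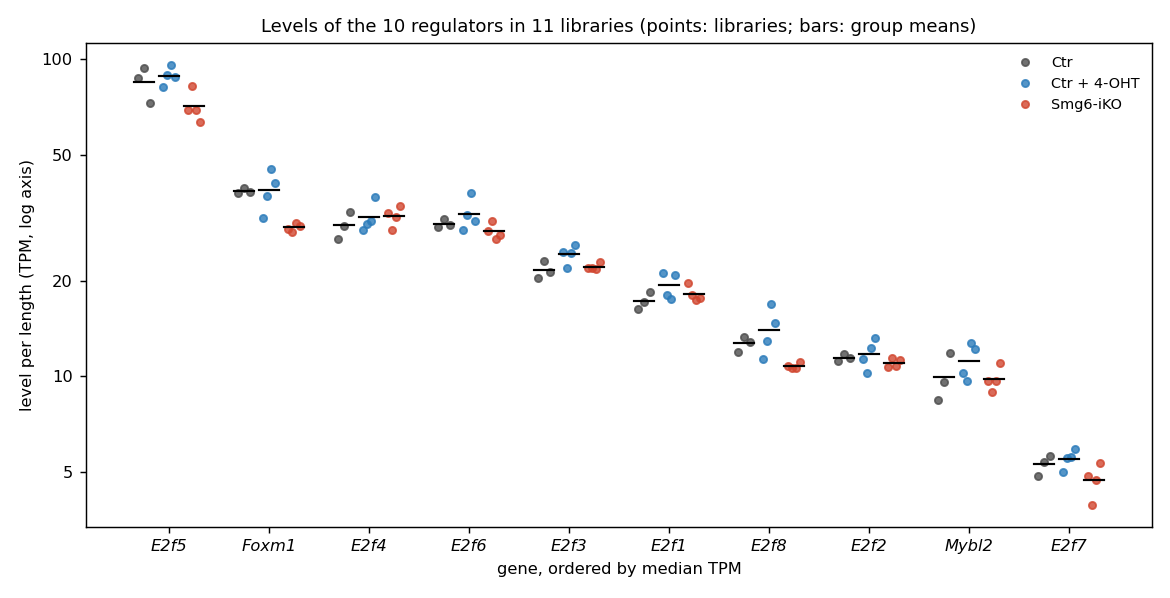
Level of each regulator per length (TPM, log axis) in the 3 Ctr, 4 Ctr + 4-OHT and 4 Smg6-iKO libraries, with points for libraries and bars for group means. E2f5 lies above all others, E2f7 lies lowest, and the Foxm1 points of Smg6-iKO lie below those of both control groups.

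Between *Smg6*-iKO and Ctr, 3 of the 10 regulators passed the edgeR test and none of them was higher. These groups share a genotype, so that 4-OHT and the deletion cannot be told apart in this comparison. *Foxm1* fell by 27.6%, *E2f5* fell by 20.8% and *E2f8* fell by 19.9%. The comparison called 9.25% of the 17974 genes tested, 4.98% as lower. The groups did not overlap for 4 regulators, *E2f2*, *E2f6*, *E2f8* and *Foxm1*, all lower in *Smg6*-iKO, beside 11.9% of all genes. The median log2 fold change of the 10 was -0.15, against 0.01 over all genes tested, and 9 of 10 estimates were below 0. With the embryo as a block, 4 regulators fell, *E2f7* being added, beside 21.4% of all genes called (11.2% lower). Fewer dividing cells and less of these transcripts per cell cannot be told apart in bulk RNA.

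Between *Smg6*-iKO and Ctr + 4-OHT, in which both groups had 4-OHT, the edgeR test called none of the 10 regulators, and it called 1.17% of the 17558 genes tested, 0.416% as lower. These groups differ in the CreER allele, so that the allele with 4-OHT and the deletion cannot be told apart here. *Foxm1*, *E2f5* and *E2f8* had an unadjusted p under 0.05, and the same 3 were lower than Ctr + 4-OHT in every *Smg6*-iKO library, where 5.99% of all genes showed such a separation. The median log2 fold change of the 10 was -0.17, against 0.01 over all genes. DESeq2, the tool used in the study, called these 3 genes as lower in the same comparison, beside 3.45% of the 14279 genes to which it gave an adjusted p, with values of 0.00749 for *Foxm1*, 0.0187 for *E2f5* and 0.0349 for *E2f8*. Both comparisons use the same *Smg6*-iKO libraries and are not independent. Between the 2 control groups, which differ in 4-OHT and in the CreER allele, none of the 10 regulators was called by edgeR or DESeq2, none had an unadjusted p under 0.05 in edgeR, and none was without overlap. Here 0.221% of the 17665 genes tested were called and 8.71% did not overlap, and the median of the 10 was 0.01, with estimates from -0.08 (*Foxm1*) to 0.09 (*Mybl2*).

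**Figure D2:**
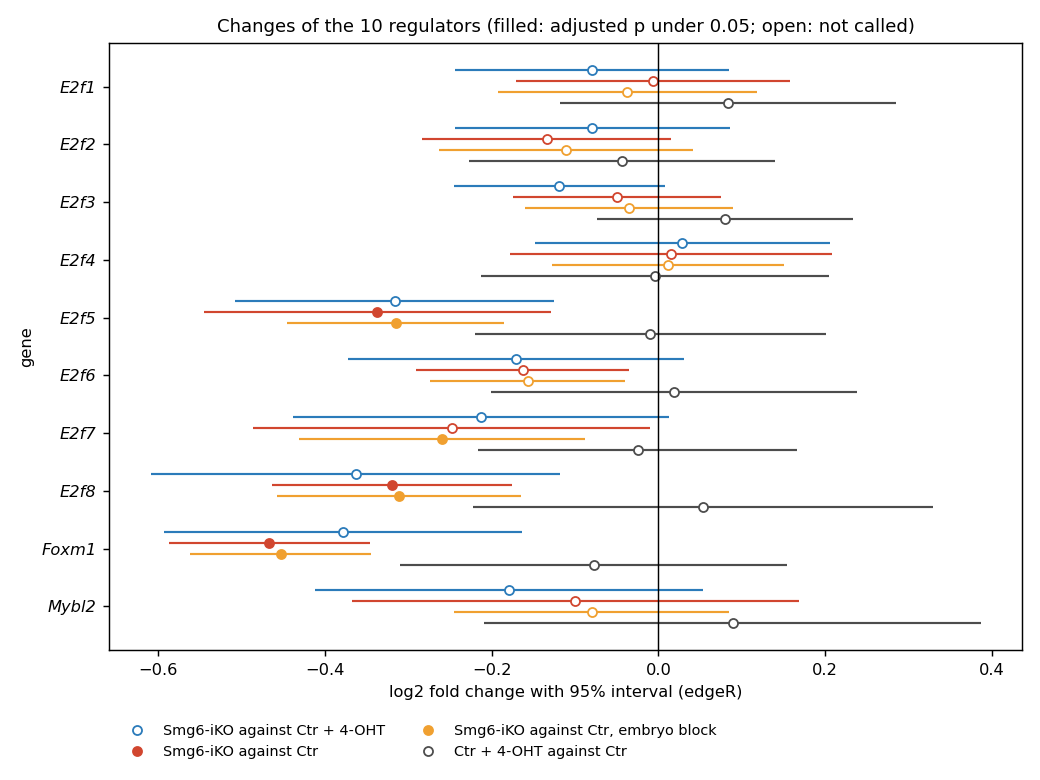
Log2 fold change with its 95% interval (horizontal axis) for the 10 regulators (vertical axis) in Smg6-iKO against Ctr + 4-OHT, in Smg6-iKO against Ctr without and with the embryo as a block, and in Ctr + 4-OHT against Ctr; filled points had an adjusted p under 0.05 (edgeR). Foxm1, E2f8 and E2f5 lie left of 0 in every fit of Smg6-iKO, while all intervals of Ctr + 4-OHT against Ctr include 0.

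Of the activators, *E2f1* (ENSMUSG00000027490, chromosome 2), which couples release from the retinoblastoma protein to S phase entry, stood at 17.6, 17.9 and 19.9 CPM in Ctr SMH_128, SMH_132 and SMH_133, at 21.6, 18.9, 17.9 and 19.8 CPM in Ctr + 4-OHT SMH_125, SMH_126, SMH_129 and SMH_131, and at 19.5, 18.1, 17.7 and 18.2 CPM in *Smg6*-iKO SMH_127, SMH_128, SMH_132 and SMH_133. The groups overlapped throughout. Its log2 fold change was -0.01 (95% interval -0.17 to 0.16) against Ctr and -0.08 (-0.24 to 0.09) against Ctr + 4-OHT, so that a decrease of the size of that of *Foxm1* lay outside both intervals.

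*E2f2* (ENSMUSG00000018983, chromosome 4), a close relative of *E2f1*, ranged from 18.7 to 19.1 CPM in Ctr, from 16.5 to 19.4 CPM in Ctr + 4-OHT and from 16.4 to 17.9 CPM in *Smg6*-iKO. *Smg6*-iKO lay below Ctr in every library but overlapped with Ctr + 4-OHT. The log2 fold changes of -0.13 ± 0.07 (SE) and -0.08 ± 0.07 did not pass the test (adjusted p = 0.233 and 0.641 in edgeR). *E2f3* (ENSMUSG00000016477, chromosome 13), the third activator and the most abundant of them, ranged from 38.1 to 41.3 CPM in Ctr, from 39.4 to 43.2 CPM in Ctr + 4-OHT and from 37.3 to 40.4 CPM in *Smg6*-iKO. All groups of *E2f3* overlapped, with log2 fold changes of -0.05 ± 0.06 (SE) against Ctr and -0.12 ± 0.06 against Ctr + 4-OHT (adjusted p = 0.624 and 0.330).

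E2F4 and E2F5, which bind pocket proteins, are close relatives. *E2f5* fell against Ctr while the estimates of *E2f4* were near 0, and the difference between the genes was not tested. *E2f5* (ENSMUSG00000027552, chromosome 3) stood at 53.4, 54.9 and 44.5 CPM in Ctr, at 47.3, 52.4, 55.3 and 47.2 CPM in Ctr + 4-OHT and at 38.5, 46.6, 39.6 and 36.7 CPM in *Smg6*-iKO, with libraries in the same order as for *E2f1*. All 4 *Smg6*-iKO libraries lay below all of Ctr + 4-OHT, whereas *Smg6*-iKO SMH_128 was above Ctr SMH_133. The log2 fold change was -0.34 ± 0.09 (SE) against Ctr (adjusted p = 0.0494 in edgeR) and -0.32 ± 0.09 against Ctr + 4-OHT (adjusted p = 0.109). The call against Ctr was close to the threshold: it was lost without Ctr SMH_128 (adjusted p = 0.155), Ctr SMH_132 (0.161), *Smg6*-iKO SMH_127 (0.109), *Smg6*-iKO SMH_132 (0.101) or *Smg6*-iKO SMH_133 (0.125). It was also lost with all libraries in a single fit (0.0701), upper-quartile factors (0.0645), limma-voom (0.0501) and a minimum count in every library (0.0501), and kept in the 7 other settings. With the embryo as a block its log2 fold change was -0.32 ± 0.06 (SE) with an adjusted p of 0.00148. The gene shares 26 exonic bases with *1810022K09Rik* on the other strand, and counting was stranded.

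*E2f4* (ENSMUSG00000014859, chromosome 8) ranged from 22.8 to 27.8 CPM in Ctr, from 22.9 to 27.2 CPM in Ctr + 4-OHT and from 22.6 to 27.5 CPM in *Smg6*-iKO. These ranges nearly coincided. It was the only regulator with an estimate above 0 in both comparisons of *Smg6*-iKO, 0.01 (95% interval -0.18 to 0.21) against Ctr and 0.03 (-0.15 to 0.21) against Ctr + 4-OHT, and both turned below 0 when gene length was corrected for (-0.03 and -0.02). Across the 11 libraries *E2f4* and *E2f5* had a Pearson r of -0.51, the lowest of the 45 pairs among the 10 genes.

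*E2f6* (ENSMUSG00000057469, chromosome 12), a repressor that works with polycomb proteins, stood at 57.4, 58.3 and 58.4 CPM in Ctr, at 52.9, 60.5, 69.1 and 52.5 CPM in Ctr + 4-OHT and at 51.0, 55.6, 49.4 and 51.3 CPM in *Smg6*-iKO. *Smg6*-iKO lay below Ctr in every library and overlapped with Ctr + 4-OHT, in which library SMH_129 stood highest. The log2 fold change of -0.16 ± 0.06 (SE) against Ctr had an adjusted p of 0.102 in edgeR, of 0.0533 with the embryo block, of 0.0498 with length correction and of 0.0207 with both. It was 0.0393 without *Smg6*-iKO SMH_128 and up to 0.221 in the other 6 fits that left out a library, none of which called it, and 9 of 11 other settings did not call it either. Against Ctr + 4-OHT it was -0.17 ± 0.09 (adjusted p = 0.377), and -0.087 without Ctr + 4-OHT SMH_129. In the GENCODE annotation 3 of its 7 transcripts carry the NMD biotype, as does 1 of the 9 of *E2f7* and none of the other 8 genes. Counts per gene do not separate transcripts.

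The atypical repressors *E2f7* and *E2f8* restrain the same promoters that the activators switch on, and of these *E2f8* fell against Ctr. *E2f8* (ENSMUSG00000046179, chromosome 7) stood at 22.4, 23.9 and 24.0 CPM in Ctr, at 19.9, 23.2, 29.8 and 24.2 CPM in Ctr + 4-OHT and at 18.4, 18.3, 18.6 and 19.7 CPM in *Smg6*-iKO. Every *Smg6*-iKO library lay below every library of both control groups, although Ctr + 4-OHT SMH_125 was close to them. Against Ctr the log2 fold change was -0.32 ± 0.07 (SE, adjusted p = 0.0167 in edgeR), and the adjusted p was 0.0594 without Ctr SMH_132 and 0.107 with all libraries in a single fit. Against Ctr + 4-OHT it was -0.36 ± 0.11 (adjusted p = 0.141). With the embryo block it was -0.31 ± 0.07 (adjusted p = 0.00409). *E2f8* shares 610 exonic bases, 11.2% of its length, with *Gm2788* on the other strand, which had a median of 9 reads.

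*E2f7* (ENSMUSG00000020185, chromosome 10) stood at 15.0, 16.0 and 17.3 CPM in Ctr, at 14.6, 16.4, 16.3 and 16.0 CPM in Ctr + 4-OHT and at 13.6, 11.3, 13.7 and 15.6 CPM in *Smg6*-iKO. *Smg6*-iKO SMH_133 overlapped with both control groups, and *Smg6*-iKO SMH_128 was the lowest library. Against Ctr the log2 fold change of -0.25 ± 0.11 (SE) did not pass the test (adjusted p = 0.170 in edgeR), nor did -0.21 ± 0.10 against Ctr + 4-OHT (adjusted p = 0.323), which was -0.14 without *Smg6*-iKO SMH_128. With the embryo as a block *E2f7* fell by 16.4%, at a log2 fold change of -0.26 ± 0.08 (SE, adjusted p = 0.0300).

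*Foxm1* (ENSMUSG00000001517, chromosome 6), the activator of mitotic genes, stood at 74.8, 74.6 and 75.5 CPM in Ctr, at 58.8, 70.6, 84.1 and 70.4 CPM in Ctr + 4-OHT and at 52.6, 52.2, 56.3 and 55.7 CPM in *Smg6*-iKO. It was the lowest in all 4 *Smg6*-iKO libraries, nearly equal in the 3 Ctr libraries and widely spread in Ctr + 4-OHT. The coefficient of variation was 0.610% in Ctr, 3.85% in *Smg6*-iKO and 14.5% in Ctr + 4-OHT. With 1972 to 2334 reads per Ctr library, counting error alone is larger than 0.610%. That value is therefore no measure of the spread between embryos. The log2 fold change was -0.47 ± 0.05 (SE) against Ctr (adjusted p = 0.00158 in edgeR), which was called in all 7 fits that left out a library and in all 11 other settings. Against Ctr + 4-OHT it was -0.38 ± 0.10 (SE, adjusted p = 0.0954), and without Ctr + 4-OHT SMH_125 it was -0.47 with an adjusted p of 0.0373. Without Ctr + 4-OHT SMH_129 it was -0.29 (adjusted p = 0.136), and none of the 7 fits that left out a library other than SMH_125 called it (adjusted p = 0.131 to 0.214). With all 11 libraries in a single edgeR fit the adjusted p was 0.0338. *Tex52* on the same strand shares 144 exonic bases with *Foxm1* and had a median of 4 reads.

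*Mybl2* (ENSMUSG00000017861, chromosome 2), which starts the late cell cycle program with MuvB, stood at 13.45, 14.6 and 18.7 CPM in Ctr, at 15.4, 14.8, 19.1 and 17.0 CPM in Ctr + 4-OHT and at 14.0, 13.1, 14.4 and 16.6 CPM in *Smg6*-iKO. The groups overlapped. The log2 fold change was -0.10 (95% interval -0.37 to 0.17) against Ctr and -0.18 (-0.41 to 0.05) against Ctr + 4-OHT, with adjusted p of 0.646 and 0.427 (edgeR). Without Ctr SMH_133 the estimate against Ctr was 0.05, and without Ctr + 4-OHT SMH_129 that against Ctr + 4-OHT was -0.11.

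**Figure D3:**
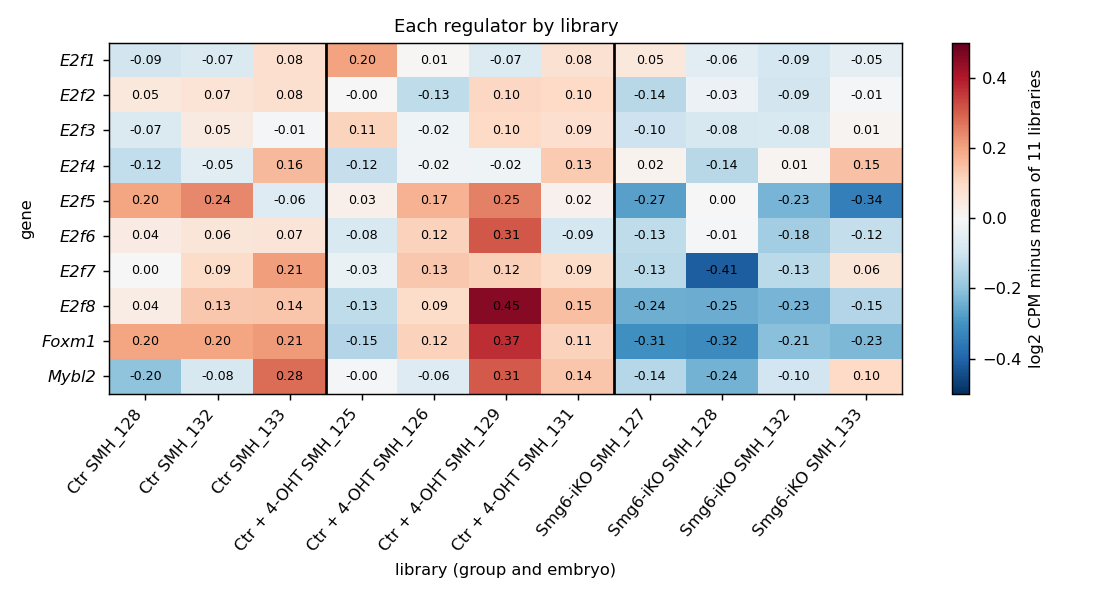
Log2 CPM of each regulator (rows) in each library (columns, by group and embryo) minus the mean of that gene over the 11 libraries. Foxm1 and E2f8 are below their mean in all 4 Smg6-iKO libraries and in Ctr + 4-OHT SMH_125, and highest in Ctr + 4-OHT SMH_129.

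*Foxm1* and *E2f8* had the highest Pearson r of all pairs, 0.95 over the 11 libraries, which share group differences and embryos. *E2f8* with *E2f6* had an r of 0.84, *Foxm1* with *E2f6* 0.79, and *Foxm1* with *E2f1* -0.13. In Ctr + 4-OHT, library SMH_129 was the highest in CPM for *Foxm1*, *E2f8*, *E2f6*, *E2f5*, *E2f2* and *Mybl2* and the lowest for *E2f1*. Library SMH_125 was the lowest for *Foxm1*, *E2f8*, *E2f7* and *E2f4* and the highest for *E2f1* and *E2f3*. Neuronal markers summed to 903 TPM in Ctr + 4-OHT SMH_129, 1218 TPM in SMH_126, 1753 TPM in SMH_131 and 1849 TPM in SMH_125. In *Smg6*-iKO SMH_127, SMH_128, SMH_132 and SMH_133 they summed to 1669, 1394, 1316 and 1521 TPM, all above the 3 Ctr libraries. Oligodendrocyte lineage markers summed to 1026 TPM in Ctr + 4-OHT SMH_129, 936 TPM in SMH_131, 831 TPM in SMH_126 and 766 TPM in SMH_125. The part of cell composition in the levels of the regulators was not tested.

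The genes most like each regulator over the 11 libraries were found by Pearson r of log2 CPM. For *Foxm1* they were *Kpna2* (0.98), *Ticrr* (0.98) and *Cdca8* (0.98), of which *Cdca8* encodes a subunit of the chromosomal passenger complex. Those most like *E2f8* were *Pycard*, *Slc25a5* and *Rac1* (0.96, 0.96 and 0.95), those most like *Mybl2* were *Cad*, *Mybbp1a* and *Srm* (0.94, 0.94 and 0.93), and those most like *E2f5* were *Sbf2*, *Tspan6* and *Fam199x* (all 0.97). *E2f6* was most like *Npm1*, *Gm8730* and *Tcf12* (all 0.96), and *E2f1* most like *H2afy2* (0.97), *Uchl3* and *Rybp* (both 0.93). For *E2f2* they included *Mrpl21* and *Ppat* (0.93 and 0.91), for *E2f3* they were *Fastkd5*, *Siah1b* and *Dgcr2* (0.96, 0.95 and 0.92), for *E2f4* *Usp10*, *Usp21* and *Ehmt1* (0.93, 0.93 and 0.92), and for *E2f7* *Gm38037*, *Psmc3ip* and *Gm46350* (0.92, 0.91 and 0.91). Only *Cdca8* belonged to a gene list described below.

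Within the 3 embryos that gave both a Ctr and a *Smg6*-iKO library, 7 of the 10 regulators were lower in *Smg6*-iKO in every embryo, beside 25.9% of all 17974 genes tested. For *Foxm1* the log2 ratio of *Smg6*-iKO over Ctr was -0.52 in embryo SMH_128, -0.41 in SMH_132 and -0.44 in SMH_133. The corresponding ratios of *E2f8* were -0.29, -0.36 and -0.28, those of *E2f5* -0.20, -0.47 and -0.28 and those of *E2f7* -0.42, -0.23 and -0.15. The smallest and largest decreases in an embryo were 0.05 and 0.24 for *E2f6*, 0.08 and 0.16 for *E2f2* and 0.02 and 0.18 for *Mybl2*. *E2f1*, *E2f3* and *E2f4* were lower in 2 of 3 embryos, with ratios from -0.13 to 0.04, from -0.12 to 0.02 and from -0.01 to 0.06.

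**Figure D4:**
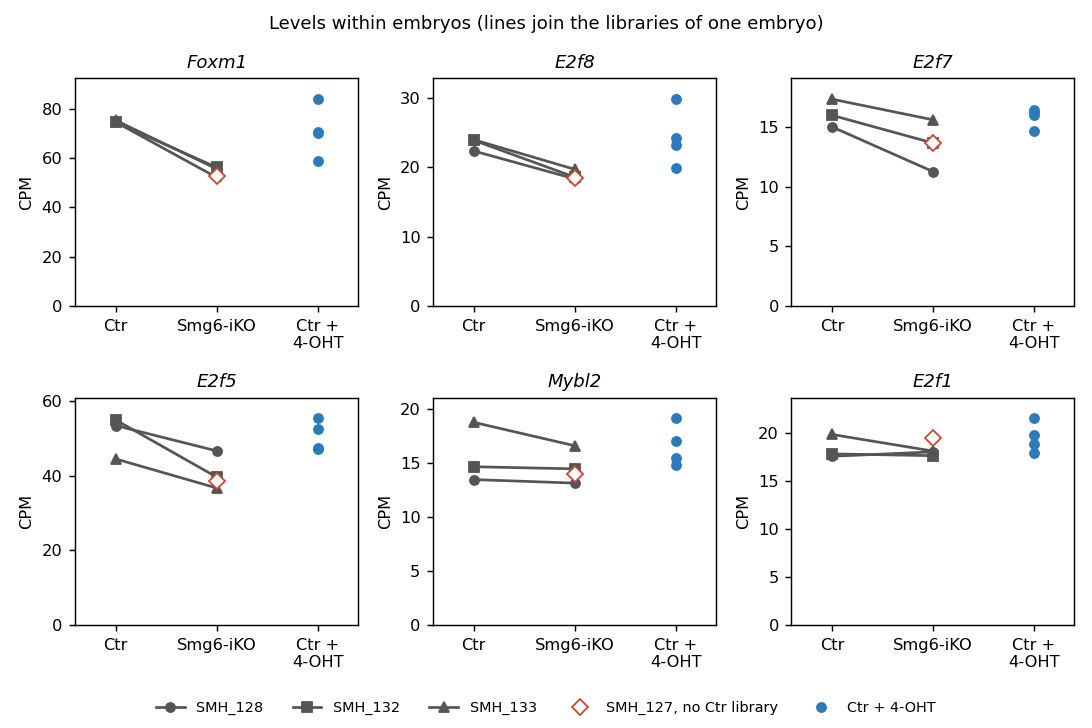
CPM of 6 regulators (vertical axes from 0) in Ctr and Smg6-iKO libraries, with lines joining the 2 libraries of an embryo, the Smg6-iKO library of embryo SMH_127 as an open diamond and the Ctr + 4-OHT libraries as blue points. The lines of Foxm1, E2f8, E2f7 and E2f5 go down in all 3 embryos, whereas those of Mybl2 and E2f1 are nearly level except in embryo SMH_133.

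The partners and targets of the regulators were described by 6 lists of genes, whose members all passed the filter. Of the dimer partners and pocket proteins, *Rbl1*, which encodes p107 and is itself an E2F target, fell against Ctr at a log2 fold change of -0.24 (adjusted p = 0.0303 in edgeR), 1 of 5 genes beside 4.98% of all genes called lower. The DP genes *Tfdp1* and *Tfdp2* had log2 fold changes of -0.09 and -0.10, and *Rb1* and *Rbl2* of -0.13 and -0.16, none of which passed the test. Against Ctr + 4-OHT neither edgeR nor DESeq2 called any of the 5. Of the MuvB core and the other *Myb* genes, *Lin9* (-0.25, adjusted p = 0.0451) and *Rbbp4* (-0.18, adjusted p = 0.0432) fell against Ctr. *Lin52* (-0.41), *Lin54* (-0.16), *Lin37* (-0.15), *Myb* (-0.16) and *Mybl1* (-0.07) did not pass the edgeR test against Ctr. Against Ctr + 4-OHT edgeR called none of the 7, beside 0.416% of all genes as lower. DESeq2 called *Rbbp4* (adjusted p = 0.000725), *Lin9* (0.00251) and *Lin52* (0.0375) as lower there, beside 3.45% of all genes. Both the single fit of all libraries and length correction called *Lin9* and *Rbbp4*. Of the 3 edgeR calls against Ctr, that of *Rbl1* was lost without Ctr SMH_128, SMH_132 or SMH_133 or *Smg6*-iKO SMH_127, SMH_132 or SMH_133, each leaving 0 of its 5 genes called. The MuvB list, with 2 called, had 0 called without Ctr SMH_128 or SMH_132 or *Smg6*-iKO SMH_127, SMH_132 or SMH_133, 1 without Ctr SMH_133 and 4 without *Smg6*-iKO SMH_128. Without Ctr SMH_133 the gene called was *Lin52* (adjusted p = 0.0499 in edgeR), and the calls of *Lin9* (0.0974) and *Rbbp4* (0.0763) were lost. With upper-quartile factors no gene of either list was called. With all libraries in a single fit 0 of the 5 and 1 of the 7 were called, and without a filter 1 of the 7, *Lin52*. *Lin52* was also called against Ctr by DESeq2, with length correction and with the embryo block (adjusted p = 0.0202, 0.0417 and 0.00734). Length correction together with the block added *Rb1*, *Rbl2* and *Lin54*.

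The G2/M target genes of MuvB with MYBL2 and FOXM1, such as the mitotic cyclins, their kinase and spindle motors, were the list with the lowest median in both comparisons of *Smg6*-iKO. Of 30 genes, 29 fell against Ctr, beside 4.98% of all genes, with a median log2 fold change of -0.44 against 0.01 over all genes, and no gene rose. *Ccna2*, cyclin A2, had a log2 fold change of -0.46 (adjusted p = 0.00534 in edgeR), *Top2a*, the topoisomerase that untangles chromosomes, of -0.48 (adjusted p = 0.00439) and the spindle motor gene *Kif11* of -0.38 (adjusted p = 0.00806). The gene not called was *Cdkn3* (-0.15, adjusted p = 0.578), a phosphatase acting on CDK. Against Ctr + 4-OHT the median was -0.36, all 30 estimates were below 0 and 23 genes were without overlap and lower (5.99% of all genes), but only 3 passed the edgeR test (0.416% of all genes as lower), *Ccna2* (-0.45, adjusted p = 0.0425), *Ccnb1* (-0.44, adjusted p = 0.0369) and *Cdk1* (-0.42, adjusted p = 0.0313), the latter 2 named after their values were seen. DESeq2 called 24 of the 30 in that comparison (3.45% of all genes as lower). The count of 3 was 0 without Ctr + 4-OHT SMH_125 or SMH_131 or without *Smg6*-iKO SMH_127, SMH_132 or SMH_133, 1 without Ctr + 4-OHT SMH_126, 2 without Ctr + 4-OHT SMH_129 and 5 without *Smg6*-iKO SMH_128. The count of 29 against Ctr was 26 to 29 when a library was left out. Part of this list was known to be lower from earlier results on these libraries, so its count is no independent evidence of direction.

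Of 30 E2F target genes of the G1/S transition and S phase, 14 fell against Ctr, beside 4.98% of all genes, with a median log2 fold change of -0.27, and all 30 estimates were below 0. They included subunits of the replicative helicase, *Mcm2*, *Mcm3* and *Mcm6* among them. *Gins1* (-0.35, adjusted p = 0.0604 in edgeR), *Tk1* (-0.27, adjusted p = 0.0587) and *Tyms* (-0.03, adjusted p = 0.857) did not pass the test. The count of 14 was 23 with the embryo block (11.2% of all genes as lower), 8 with all libraries in a single fit, 5 without Ctr SMH_132, 4 without Ctr SMH_133, 8 without *Smg6*-iKO SMH_132 and 9 without *Smg6*-iKO SMH_127. Against Ctr + 4-OHT the median was -0.28 and 1 of 30 passed the edgeR test, *Mcm3* (-0.33, adjusted p = 0.0407), named after its value was seen, while DESeq2 called 20, beside 0.416% and 3.45% of all genes called lower. That count was 10 without Ctr + 4-OHT SMH_126 and 0 without Ctr + 4-OHT SMH_129 or SMH_131 or *Smg6*-iKO SMH_127, SMH_128 or SMH_132. Between the control groups no gene of either list was called by edgeR, with medians of -0.04 for the G2/M genes and 0.03 for the E2F targets.

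**Figure D5:**
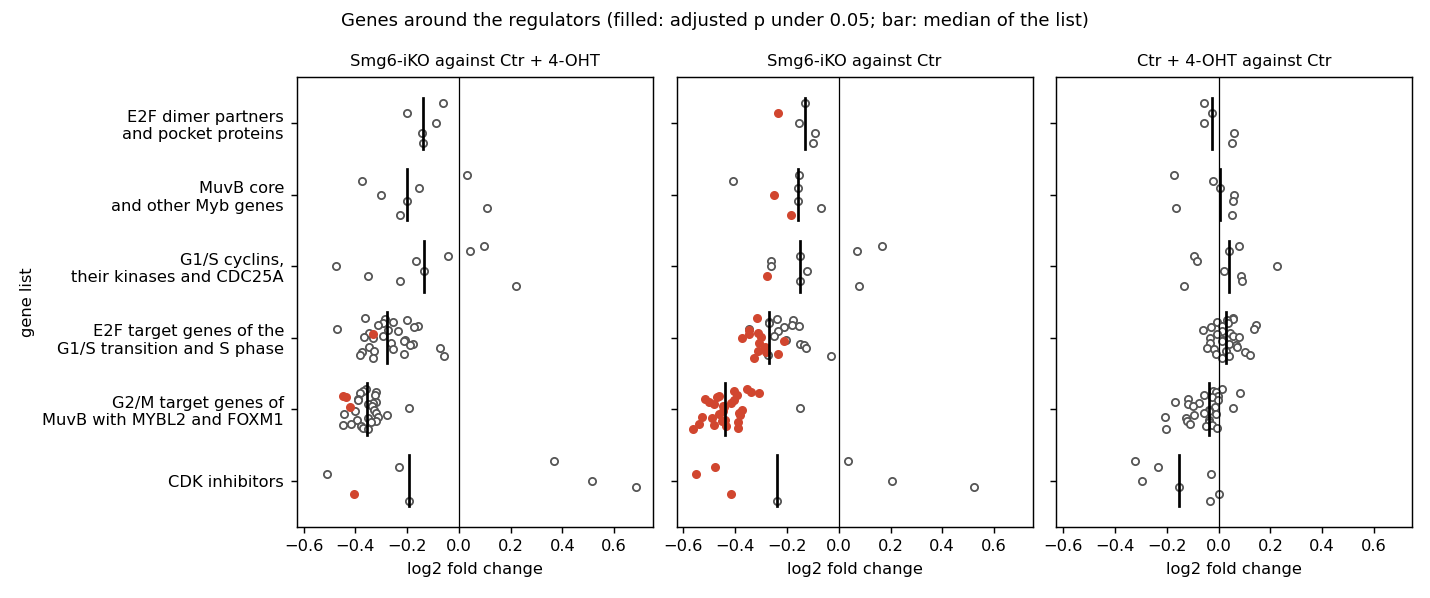
Log2 fold changes (horizontal axes) of the genes of 6 lists in the 3 comparisons, with filled points for an adjusted p under 0.05 (edgeR) and bars for the medians. The G2/M targets lie farthest left in Smg6-iKO against Ctr, with 29 of 30 filled, and all lists lie around 0 or without filled points in Ctr + 4-OHT against Ctr.

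Of the 9 genes for G1/S cyclins, their kinases and CDC25A, *Cdk2* alone fell against Ctr (-0.28, adjusted p = 0.0299 in edgeR), beside 4.98% of all genes called lower. Against Ctr + 4-OHT edgeR called none of the 9, beside 0.416% of all genes as lower. DESeq2 called *Ccne2* (adjusted p = 0.00124), *Cdk2* (0.00124) and *Cdk4* (0.00470) as lower there, beside 3.45% of all genes. The single fit of all libraries called the same 3, length correction and no filter called *Ccne2* and *Cdk2*, and a minimum count in every library called *Cdk2*. Cyclin E2, encoded by *Ccne2* and itself an E2F target, had edgeR log2 fold changes of -0.26 (adjusted p = 0.0607) against Ctr and -0.48 (adjusted p = 0.0582) against Ctr + 4-OHT, whereas the estimates of *Ccnd1*, cyclin D1, were 0.17 (adjusted p = 0.124) and 0.10 (adjusted p = 0.556), and those of *Cdk6* were 0.08 and 0.22 (adjusted p = 0.457 and 0.138). With the embryo block 4 of the 9 were called, beside 21.4% of all genes (11.2% lower). Of these 4, *Ccnd1* rose (0.19, adjusted p = 0.0221), and *Cdk2*, *Ccne1* (-0.26, adjusted p = 0.0266) and *Ccne2* (-0.28, adjusted p = 0.0157) fell. The call of *Cdk2*, the only one of this list, was lost without Ctr SMH_128, SMH_132 or SMH_133 or *Smg6*-iKO SMH_127, SMH_132 or SMH_133 and with all libraries in a single fit. Without Ctr SMH_128, *Ccne2* was called in place of *Cdk2* (-0.34, adjusted p = 0.0398). Of 7 CDK inhibitors, which hold E2F in check through the pocket proteins, 3 fell against Ctr, beside 4.98% of all genes, and none rose, *Cdkn1c* (-0.55, adjusted p = 0.00986), *Cdkn2c* (-0.42, adjusted p = 0.00940) and *Cdkn1b* (-0.48, adjusted p = 0.0101). The call of *Cdkn1c* was lost with all libraries in a single fit (adjusted p = 0.150) and by DESeq2 on all libraries (0.0545). Against Ctr + 4-OHT, *Cdkn1c* (-0.51, adjusted p = 0.270) and *Cdkn1b* (-0.23, adjusted p = 0.221) did not pass the test. Between the control groups the estimate of *Cdkn1b* was -0.24 (adjusted p = 0.532). *Cdkn2c* also fell against Ctr + 4-OHT (-0.41, adjusted p = 0.0409), a call that was lost without any of the 4 Ctr + 4-OHT libraries or without *Smg6*-iKO SMH_127, SMH_132 or SMH_133. *Cdkn2b* and *Cdkn2a* of the INK4 locus had estimates of 0.52 and 0.21 against Ctr and of 0.69 and 0.51 against Ctr + 4-OHT (adjusted p = 0.0684, 0.509, 0.0950 and 0.210), none of which passed the edgeR test. DESeq2 called *Cdkn2b* as higher in both (adjusted p = 0.0242 and 0.0102). With the embryo block *Cdkn2b* rose against Ctr (0.40, adjusted p = 0.0218) and *Cdkn2d* fell (-0.26, adjusted p = 0.00296).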

How the data were processed

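The authors depleted ribosomal RNA, sequenced stranded single reads on a HiSeq2500, mapped them to GRCm38 with STAR 2.5.4b and deposited raw counts of uniquely mapped reads per Ensembl 92 gene from featureCounts 1.5.0. Gene symbols came from GENCODE, matched for 53620 of 53801 identifiers. Counts on genes totalled 26418249 to 33756875 per library, and counting error adds to the spread between embryos.

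Each comparison was fitted to the libraries of its 2 groups. After filtering with filterByExpr and scaling by TMM, edgeR 4.0.16 (R 4.3.3) gave quasi-likelihood p-values, which were adjusted after Benjamini and Hochberg and called under 0.05. CPM used TMM factors and TPM the deposited exon lengths (*E2f7*, the longest, has 9009 bases). DESeq2 1.42.0 and limma 3.58.1 were alternatives, listed in the closing section. The tests were tested on simulated data: of genes changed by a log2 of 0.5 they called 38.8% in *Smg6*-iKO against Ctr + 4-OHT (17338 genes), 45.1% in *Smg6*-iKO against Ctr (17720 genes) and 35.4% in Ctr + 4-OHT against Ctr (17399 genes).

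Embryo numbers in the labels pair 3 Ctr with 3 *Smg6*-iKO libraries of the same genotype. Deviations from the group means correlated at 0.328, 0.399 and 0.425 for same-numbered libraries and at -0.265 to 0.0948 for others. No 2 libraries of a group agreed within sampling noise (chi-square per gene of 11.0 or more).

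The regulators and lists were chosen with earlier results of these data known. Named genes were all regulators, all genes of the partner and MuvB lists, and from each other list the 2 lowest and 2 highest log2 fold changes in *Smg6*-iKO against Ctr + 4-OHT; others are named beside counts. For 2 genes that these rules or the likeness of patterns name, values are not reported here.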

Additional observations from a re-analysis of the deposited data

How the results depend on the processing

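*Foxm1* against Ctr was called under every alternative run, with a log2 fold change of -0.51 to -0.43. Numbers below follow the order *Smg6*-iKO against Ctr + 4-OHT, *Smg6*-iKO against Ctr, Ctr + 4-OHT against Ctr; edgeR called 206, 1663 and 39 genes. A single fit of all libraries called 484, 796 and 60, and no filter 418, 2714 and 198. The DESeq2 Wald test called 880 in the first and 168 in the last, or 1131 and 238 when fitted on all libraries. Leaving out a library gave 66 to 174, 570 to 2524 and 5 to 54. The embryo block (pairing) called 3854 genes in *Smg6*-iKO against Ctr, and 4076 together with the length correction. It added *E2f7* to the regulators called and lost none. Length correction turned the split from 73 lower of 206 to 156 lower and 94 higher in the first comparison and from 767 higher and 896 lower to 550 and 1405 in the second, and upper-quartile factors gave 1089 and 694 in the second. Of the 10 regulators, against Ctr + 4-OHT 1 was called with all libraries in a single fit, 1 without a filter, 3 by DESeq2 in either fit and 0 to 1 when a library was left out. Against Ctr 1 was called with all libraries in a single fit, 5 with the block and length correction and 1 to 4 when a library was left out. Over the 6 lists, 5 genes were called against Ctr + 4-OHT, and 36 in the single fit, 8 with DESeq2 size factors, 52 and 58 by DESeq2, 26 with length correction, 36 without a filter and 0 to 12 when a library was left out; against Ctr the last range was 35 to 51. The causes were not tested.

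Signs turned for uncalled estimates near 0. *E2f4* against Ctr + 4-OHT gave -0.021 with length correction and -0.025 to 0.071 when a library was left out. *E2f4* against Ctr gave -0.028 with length correction, -0.033 with length correction and the block, and -0.041 to 0.098 when a library was left out. *E2f1* against Ctr gave 0.0071 with a minimum of 10 counts, 0.0012 without a filter, 0.026 with upper-quartile factors and -0.041 to 0.046 when a library was left out, and *Mybl2* against Ctr -0.19 to 0.047. Between the controls, *E2f4* gave 0.0022 with limma-voom, 0.0065 without a filter and 0.0031 with upper-quartile factors, and *E2f5* 0.0062 with length correction. Leaving out a library there gave -0.072 to 0.0018 for *E2f2*, -0.063 to 0.090 for *E2f4*, -0.092 to 0.048 for *E2f5*, -0.069 to 0.075 for *E2f6*, -0.074 to 0.037 for *E2f7*, -0.061 to 0.14 for *E2f8*, -0.17 to 0.0088 for *Foxm1* and -0.0079 to 0.25 for *Mybl2*. With 3 or 4 embryos a group and 307 reads or more per regulator and library, the spread between embryos and counting error both enter these comparisons. Their parts were not separated.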
